A study of Mus musculus with 12 samples.

Results

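Levels of 10 long noncoding RNAs were followed in cultured mouse cortical neurons. These were Malat1, Neat1, Meg3, Rian, Mirg, Miat, Snhg11, Snhg14, Gas5 and Pantr1. They were taken by name from a table of 55901 genes, in which each name was found. Of the 10, 8 passed the filter on low values (a mean of at least 0.5 FPKM, fragments per kilobase of exon scaled to sequencing depth, over 12 libraries) and were tested, as part of 15016 genes, while Rian and Meg3 lay below it.

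The cells were neurons of the cortex of neonatal C57BL/6J mice, released with papain. Early in culture they were given arabinosylcytosine for 24 h to limit the growth of glia. Control cultures were not injured, Trauma cultures were scratched and collected 24 h later, and Trauma+TGF-β1 cultures (Tra_TGF in the labels) were scratched and kept for 24 h with 10 ng/mL of TGF-β1, a cytokine. Each group had 4 libraries of poly(A)-selected RNA. The labels do not say whether these came from separate cultures or animals, so p-values measure the spread between libraries, which may be technical.

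Long noncoding RNAs are transcripts that are not translated into a conserved protein, and many of them stay in the nucleus. Malat1 lies in nuclear speckles, bodies rich in splicing factors, and Neat1 is the scaffold of paraspeckles. Meg3, Rian and Mirg are read from the maternal copy of the imprinted Dlk1-Dio3 region, whereas Snhg14 is read from the paternal copy of the Prader-Willi/Angelman region and runs antisense to Ube3a. Miat and Pantr1 are known from the brain, and Gas5, Snhg11 and Snhg14 carry small nucleolar RNAs (snoRNAs, guides of RNA modification) in their introns.

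Promoter sequences (250 bases before the start to 50 after it) from RefSeq on GRCm38.p6 are shown for Malat1, Miat and Snhg11. The levels of these 3 moved together between libraries of the same group, as did that of Mirg, whose promoter is not shown. Some pairs with Gas5 or Pantr1, given below, came close. Capitals mark matches on either strand to any of 7 motifs: the cyclic AMP response element (CRE) TGACGTCA, its half-site TGACGT, AP-1 TGANTCA, NRF1 (GCGCA and GCGC with 1 base between them), the E-box CACGTG, the GC box GGGCGG and the TATA box TATAAA. The half-site lies within the full CRE.
Malat1, chr19:5802623-5802922, minus strand: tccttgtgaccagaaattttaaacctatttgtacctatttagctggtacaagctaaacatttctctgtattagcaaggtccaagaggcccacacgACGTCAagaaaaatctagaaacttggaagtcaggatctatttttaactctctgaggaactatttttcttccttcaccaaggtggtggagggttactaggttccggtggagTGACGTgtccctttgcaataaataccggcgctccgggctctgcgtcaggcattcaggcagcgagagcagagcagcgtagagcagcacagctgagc
Miat, chr5:112228899-112229198, minus strand: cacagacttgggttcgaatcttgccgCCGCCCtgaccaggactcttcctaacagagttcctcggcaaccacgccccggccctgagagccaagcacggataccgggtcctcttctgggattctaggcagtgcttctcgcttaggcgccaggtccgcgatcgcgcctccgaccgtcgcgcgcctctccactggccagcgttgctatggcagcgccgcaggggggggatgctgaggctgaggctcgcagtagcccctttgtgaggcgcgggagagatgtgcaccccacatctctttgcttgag
Snhg11, chr2:158375463-158375762, plus strand: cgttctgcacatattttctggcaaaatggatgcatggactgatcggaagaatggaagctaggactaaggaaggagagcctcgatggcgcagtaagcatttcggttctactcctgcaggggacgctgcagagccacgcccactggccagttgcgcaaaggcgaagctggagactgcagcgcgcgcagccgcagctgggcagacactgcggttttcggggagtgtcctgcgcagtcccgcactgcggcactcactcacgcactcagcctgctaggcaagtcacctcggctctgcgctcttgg

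Malat1 held 2 CRE half-sites, Miat held 1 GC box, and Snhg11 held none of the 7 motifs. Mirg, which moved with them, also held none in its entry, whose start lay 5217 bases from the start used in the table. A part of promoters in the shared movement was not tested. The half-site was found in 7.51% and the GC box in 35.7% of 32851 RefSeq promoters of this length. The full CRE, found in 1.79% of promoters, was present in 2 of the 10 entries for 8 of the long noncoding RNAs, 1 of Meg3 and 1 of Gas5. AP-1, NRF1 and E-box matches were in none of the 10 entries. The RefSeq start was the start used in the table for Malat1, and lay 75 bases from it for Snhg11 and 447 bases for Miat. For Snhg14 it lay 474418 bases away.

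Some of the mature microRNAs encoded inside Mirg are shown, from precursor genes on which reads fell. Others with reads, such as those of Mir3072 (69 reads), are not shown. Capitals mark the seed, bases 2 to 8, by which a microRNA recognises its targets.
mmu-miR-496a-5p, chr12:109739132-109739152: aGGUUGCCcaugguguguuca
mmu-miR-453, chr12:109735669-109735692: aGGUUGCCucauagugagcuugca
mmu-miR-541-5p, chr12:109742422-109742446: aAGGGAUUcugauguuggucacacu
mmu-miR-154-3p, chr12:109738474-109738495: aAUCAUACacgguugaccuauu
mmu-miR-369-3p, chr12:109743466-109743486: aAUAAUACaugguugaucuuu

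The first pair, miR-496a-5p and miR-453, shared a seed. The 15 mature sequences of 8 precursor genes with reads held 14 different seeds, so no other seed was shared.

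Genes received from 15052486 to 17381671 reads in a library. Control replicate 1 stood apart from the other libraries on the 2nd principal component (59.0, the other 11 between -21.5 and 9.03), and leaving it out changed no call among the 8 tested long noncoding RNAs. Neuron markers summed to 1844 to 1913 FPKM in Control, 1636 to 1752 in Trauma, and 1596 to 1647 when TGF-β1 was added. Tubb3 alone averaged 960, 842 and 739 FPKM of these sums. Of the 12 neuron markers, 6 had a log2 fold change above 0 in Trauma+TGF-β1 against Trauma, so the sums do not show a fall of all. Astrocyte markers summed to 218 to 247, 278 to 340 and 292 to 313 FPKM in the same order, and microglia markers to 20.9 to 25.0, 31.4 to 40.2 and 25.7 to 29.5. Oligodendrocyte lineage markers summed to 54.0 to 60.3, 69.7 to 77.2 and 66.4 to 73.3, and endothelial and fibroblast markers to 3.49 to 4.37, 6.48 to 8.25 and 9.67 to 12.0. In this last list the highest mean of a single gene was 1.38, 4.43 and 6.94 FPKM, and 3 of the 10 markers passed the filter. Its sums therefore do not show a rise of all. None of the 52 markers of 5 cell types was at 0 in a group. In these bulk samples, fewer cells of a type and less RNA per cell cannot be told apart.

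Levels per length spanned nearly 3 orders of magnitude, and by this measure the name of abundant RNAs held for only some of the 10. The length was that of all annotated exons, 20771 bases for Neat1 and 18089 for Meg3. Their shortest annotated transcripts have 711 and 421 bases, so the level of a short form would be understated. Over the 12 libraries the mean was 117.7 FPKM for Malat1, 43.6 for Snhg11, 38.0 for Miat, 13.7 for Pantr1, 10.2 for Gas5, 6.67 for Snhg14 and 3.66 for Mirg. Neat1 averaged 0.513 FPKM, Rian 0.276 and Meg3 0.128, the last with 17 to 64 reads per library. In each group neighbours in this order had separate ranges, except Snhg11 and Miat in all 3 groups and Neat1 and Rian in Trauma+TGF-β1. Libraries were poly(A) selected, and the 3′ ends of Malat1 and of the long form of Neat1 carry a tract of A encoded in the genome and not an added tail.

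**Figure D1:**
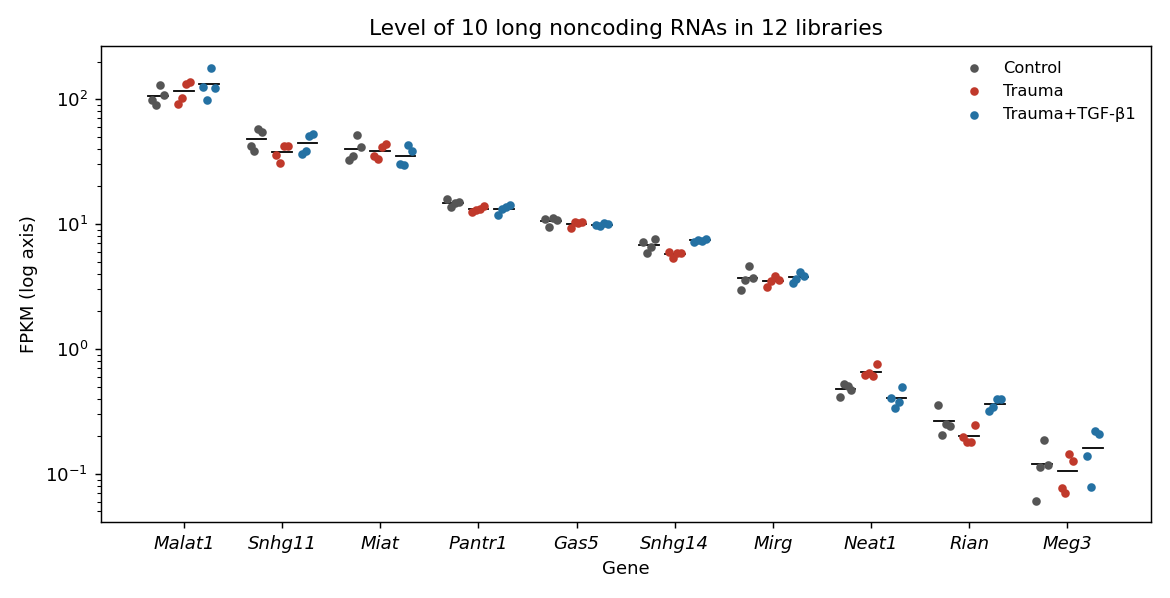
FPKM (log axis) of each gene in every library, with 4 points per group and a line at the group mean. Malat1 lies between 89.8 and 178.9 FPKM, and Neat1, Rian and Meg3 lie below 1 FPKM in every library.

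After scratch injury, none of the 8 tested RNAs passed the threshold (limma, Benjamini-Hochberg adjusted p of at most 0.05), where 6% of all 15016 tested genes did. Snhg14 and Pantr1, both with lower means, had the smallest adjusted p (limma, 0.107 and 0.147). Neat1 was higher in every Trauma library than in every Control library (limma, adjusted p = 0.367). At an unadjusted p of 0.05, 2 of the 8 passed (Snhg14 and Pantr1), against 20% of all genes. A limma-voom fit to reads recovered from the FPKM called 2 (Neat1 higher and Snhg14 lower), against 7.67% of all genes (4.15% higher and 3.52% lower). The median log2 fold change of the 8 was -0.07, and that of all tested genes -0.01.

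With TGF-β1 added to injured cultures, Snhg14 rose and was the only one of the 8 to pass, where 12.1% of all genes passed (4.4% higher and 7.71% lower). After a correction for GC content it was 0.14 on the log2 scale in place of 0.35 (limma, adjusted p = 0.218), and 0 of 8 passed. Voom on reads called Snhg14 higher and Neat1 lower, against 17% of all genes (7.29% higher and 9.72% lower). The median log2 fold change of the 8 was 0.05, beside 0.00 over all genes. Between Trauma+TGF-β1 and Control, 0 of 8 passed against 16.6% of genes by limma. At an unadjusted p of 0.05, 1 of 8 passed (Pantr1), against 31.1% of genes, and voom called 0 of 8 against 19.4%. The median there was -0.10, beside -0.01 for all genes. Among all 921 tested genes that the table types as lncRNA, 2.17%, 3.69% and 4.13% were called in these 3 comparisons. The comparisons share libraries, so an opposite sign in the first and second is not independent evidence of a return.

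The share of all tested genes called depended on the fit. In the same order of the 3 comparisons, it was 8.21%, 5.47% and 13.2% after a GC correction, and 6.64%, 8.54% and 16.4% after a gene length correction. With a replicate block it was 5.23%, 10.1% and 15.1%. Voom on every gene with a read called 3.04%, 5.56% and 7.07%. At an unadjusted p, 29.2% of genes passed in the second comparison, where Snhg14 and Neat1 were the members that did.

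**Figure D2:**
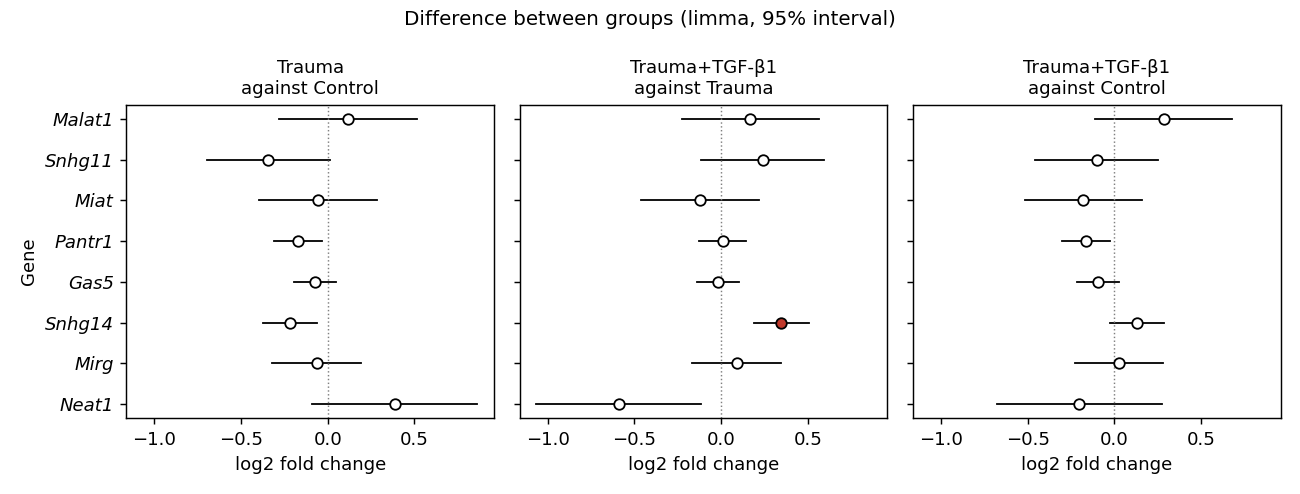
Log2 fold change of the 8 tested genes in 3 comparisons, with 95% intervals from limma. The filled point, Snhg14 in Trauma+TGF-β1 against Trauma, is the one call. The interval of Neat1 is the widest in each panel, and rests in part on the spread of other genes at its level.

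Snhg14 (chr7:59307924-59975759, minus strand, GRCm38) is the long host transcript whose introns carry arrays of snoRNAs. Its level was 7.19, 5.88, 6.53 and 7.54 FPKM in Control replicates 1 to 4. In Trauma it was 6.02, 5.37, 5.90 and 5.92, and in Trauma+TGF-β1 it was 7.21, 7.49, 7.34 and 7.59. Each of the 4 Trauma+TGF-β1 values exceeded each Trauma value, whereas Control spanned values of both groups. The means were 6.79 ± 0.735 (SD, n = 4), 5.80 ± 0.292 and 7.41 ± 0.168.

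The rise from Trauma to Trauma+TGF-β1 was 0.35 ± 0.072 (SE) on the log2 scale, or 1.27-fold (limma, adjusted p = 0.0138). Against Control, the Trauma value was -0.22 ± 0.072 (limma, adjusted p = 0.107), and it passed without Control replicate 2 (-0.28, limma, adjusted p = 0.0273). Trauma+TGF-β1 against Control gave 0.13 ± 0.072 (limma, adjusted p = 0.240). Of all tested genes, 10.2% had every Trauma+TGF-β1 library above every Trauma library, as Snhg14 had.

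Snhg14 was unusual in base composition and length. Its longest transcript was 31.0% GC, lower than in all but 0.150% of tested genes (median 49.6%), and its exons covered 26093 bases, longer than in 99.8% of them. The 112 tested genes under 35% GC had a median log2 fold change of -0.14 in Trauma against Control and 0.19 in Trauma+TGF-β1 against Trauma, both in the direction of Snhg14. The 370 genes over 15000 bases had medians of -0.04 and 0.14. After a loess correction of each library for GC content, Snhg14 was 0.14 higher in Trauma+TGF-β1 than in Trauma (limma, adjusted p = 0.218), and after one for gene length 0.19 higher (limma, adjusted p = 0.0607), so neither fit called it.

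**Figure D3:**
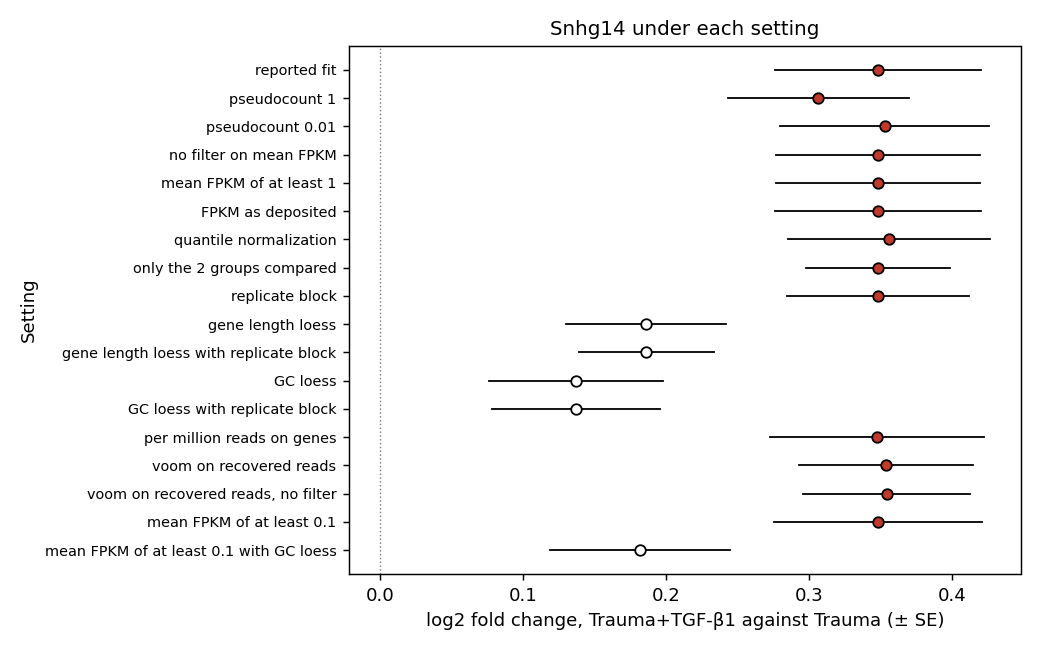
Log2 fold change of Snhg14 (Trauma+TGF-β1 against Trauma, ± SE) in the reported fit and under the other settings. Filled points passed an adjusted p of 0.05. The open points, between 0.14 and 0.19, are the fits corrected for gene length or GC content.

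Whether a change in GC bias, length bias or depth between libraries contributed was not tested. Reads on Snhg14 numbered 2609 to 3034 per library in Control, 2445 to 2747 in Trauma, and 2866 to 3171 when TGF-β1 was added. Inside its span of 667836 bases the table lists 208 snoRNA genes, nearly all intronic. Reads fell on 80 of these, at 61 to 97 reads per library in Control, 47 to 66 in Trauma, and 48 to 79 when TGF-β1 was added. A poly(A) library takes up mature snoRNAs poorly, so these reads are not a measure of them.

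Of the genes around Snhg14, the values differed. Ube3a, a ubiquitin ligase that overlaps Snhg14 on the other strand, had 4.89, 4.69 and 5.49 FPKM in Control, Trauma and Trauma+TGF-β1. Its log2 difference between the last pair was 0.22 (limma, adjusted p = 0.10, and 0.0295 in limma-voom), and 0.03 after the GC correction. The strand setting of the counting was not given in the sources used here, so reads in the overlap may have been shared.

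Snrpn, a splicing protein gene on the strand of Snhg14, fell by 0.21 on the log2 scale in Trauma (limma, adjusted p = 0.0338) and lay 0.26 below Control in Trauma+TGF-β1 (limma, adjusted p = 0.00667). Of the 5 tested genes listed for the region, 1 fell in Trauma against Control, 2 fell in Trauma+TGF-β1 against Trauma and 2 fell in Trauma+TGF-β1 against Control, and 0 rose in any by limma, with 1 higher at an unadjusted p of 0.05 and in voom in the second comparison. Ndn and Mkrn3, also expressed from the paternal copy, fell with TGF-β1 by 0.18 and 0.31 (limma, adjusted p = 0.0410 and 0.0365). Mkrn3 was no longer called after the GC correction (limma, adjusted p = 0.0589). Ndn was 0.24 below Control in Trauma+TGF-β1 (limma, adjusted p = 0.00952).

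Neat1 (chr19:5824708-5845478, minus strand) was the one member with higher values in every Trauma library than in every library of both other groups. The 4 Control libraries held 0.416, 0.527, 0.505 and 0.465 FPKM. The 4 Trauma libraries held 0.615, 0.646, 0.607 and 0.758, and the 4 Trauma+TGF-β1 libraries 0.408, 0.336, 0.375 and 0.499. The lowest Trauma value was therefore above the highest of the other 8 libraries, while Control and Trauma+TGF-β1 overlapped.

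Trauma was 0.39 ± 0.218 (SE) above Control on the log2 scale (limma, adjusted p = 0.367), with voom on reads at 0.45 (limma-voom, adjusted p = 0.0247). Trauma+TGF-β1 was -0.59 ± 0.218 against Trauma (limma, adjusted p = 0.0963), and -0.71 in voom (limma-voom, adjusted p = 0.00106). Both differences had p = 0.0286 when the libraries were permuted exactly (two-sided), and 70 assignments of 4 against 4 allow no smaller value. Among all tested genes, 6.25% were higher in every Trauma than every Control library, and 12% were lower in every Trauma+TGF-β1 than every Trauma library.

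The reads behind Neat1 were few, 133 to 186 per library in Control, 210 to 280 in Trauma, and 109 to 166 when TGF-β1 was added. The added 0.1 FPKM shrinks the difference at this level, and the ratio of means was 1.37 for Trauma over Control and 0.616 for Trauma+TGF-β1 over Trauma. The GC correction left the differences at 0.36 and -0.63. Microglia marker sums, given above, were also higher in every Trauma library than in the other 8, and astrocyte sums were above Control in both injured groups. Their part in the values of Neat1 was not tested.

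**Figure D4:**
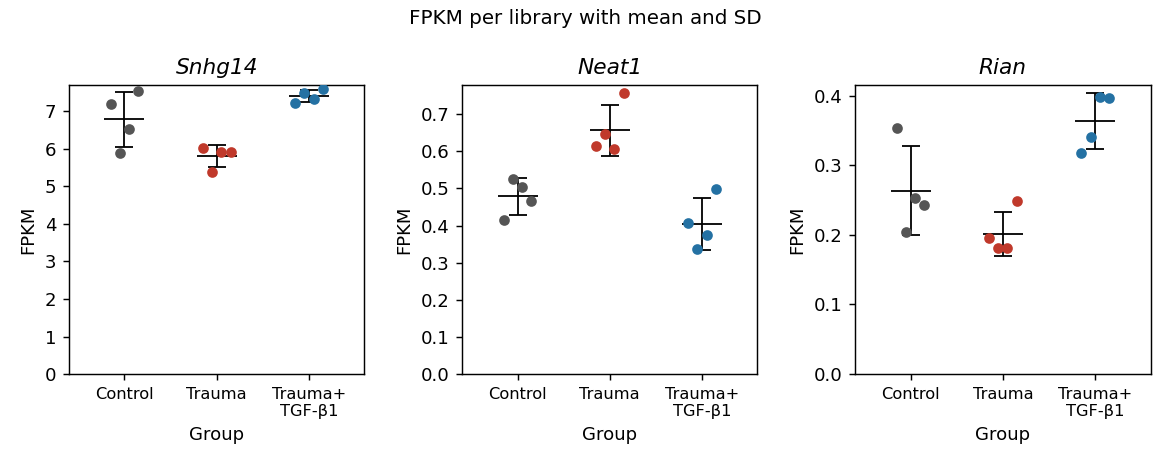
FPKM of Snhg14, Neat1 and Rian per library, with the mean and SD of each group of 4 and an axis from 0. For Snhg14 and Rian each Trauma+TGF-β1 library lies above each Trauma library, and for Neat1 each lies below.

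Paraspeckles are built from Neat1 and RNA-binding proteins. Of 14 such proteins listed and tested, 0 passed in Trauma against Control by limma, 1 at an unadjusted p of 0.05 and 1 in voom. In Trauma+TGF-β1 against Trauma 2 fell, among them the RNA-binding protein Taf15, by 0.28 (limma, adjusted p = 0.0235). Taf15 was also 0.28 lower than in Control (limma, adjusted p = 0.0157). The list medians were 0.00, -0.07 and -0.10 in the 3 comparisons.

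Malat1 (chr19:5795690-5802672, minus strand) had the highest level of the 10 and the widest spread of the 8 tested. Control libraries 1 to 4 held 97.7, 89.8, 129.2 and 107.8 FPKM. Trauma libraries held 91.5, 101.2, 132.5 and 137.7, and Trauma+TGF-β1 libraries 124.2, 99.3, 178.9 and 122.2. The 3 groups overlapped throughout, with means of 106.1 ± 17.01, 115.7 ± 22.8 and 131.2 ± 33.8 (SD, n = 4).

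The largest difference of Malat1, Trauma+TGF-β1 against Control, was 0.29 with a 95% interval from -0.11 to 0.68 (limma, adjusted p = 0.314). With 10502 to 20223 reads per library, the spread between libraries and not the counting of reads limits this comparison. Of 20 nuclear speckle proteins, 0 passed in Trauma against Control by limma (2 at an unadjusted p of 0.05 and 1 in voom), 3 rose in Trauma+TGF-β1 against Trauma, and 2 rose and 3 fell against Control. The 3 that rose were Son, a scaffold of the speckle (0.24, limma, adjusted p = 0.0173), the splicing factor Sf3b1 (0.23, limma, adjusted p = 0.0135) and Srsf10, a splicing regulator (0.21, limma, adjusted p = 0.0218). After the GC correction Sf3b1 was 0.12 and Srsf10 0.086 (limma, adjusted p = 0.0799 and 0.212), and neither was called. Srsf2, a splicing factor of the speckle, was 0.19 below Control (limma, adjusted p = 0.00326).

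Miat (chr5:112213228-112229395, minus strand), first known from a locus of heart disease and much expressed in neurons, held 32.7, 34.8, 51.8 and 41.6 FPKM in Control. In Trauma it held 34.9, 33.4, 41.1 and 43.7, and in Trauma+TGF-β1 30.2, 29.9, 42.7 and 38.7. No group stood apart, and the 3 log2 differences lay between -0.18 and -0.06, with limma adjusted p from 0.473 to 0.889.

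Snhg11 (chr2:158375638-158386145, plus strand), a snoRNA host typed as protein-coding in the table, held 41.8, 38.1, 58.2 and 54.6 FPKM in Control. Trauma libraries held 35.5, 31.0, 41.9 and 42.3, and Trauma+TGF-β1 libraries 36.6, 38.5, 51.1 and 53.0. The Trauma mean was the lowest, but the groups overlapped. In the fit without a replicate block, the log2 difference was -0.34 ± 0.163 (SE) for Trauma against Control (limma, adjusted p = 0.270) and 0.24 ± 0.163 for Trauma+TGF-β1 against Trauma (limma, adjusted p = 0.361). Of 2 snoRNA genes inside Snhg11, reads fell on 1, with 190 in all 12 libraries.

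Malat1, Miat, Snhg11 and Mirg deviated from their group means together. Across the 12 libraries, with group means removed, Miat correlated with Snhg11 at r = 0.93 (rho = 0.82), with Malat1 at r = 0.84 (rho = 0.77) and with Mirg at r = 0.84 (rho = 0.85). Malat1 with Snhg11 gave r = 0.73 (rho = 0.67). Mirg gave r = 0.68 (rho = 0.71) with Snhg11 and r = 0.64 (rho = 0.73) with Malat1. Some pairs outside these 4 came close. Gas5 with Pantr1 gave r = 0.65 (rho = 0.58), Snhg11 with Pantr1 r = 0.62 (rho = 0.70), and Malat1 with Gas5 r = 0.60 (rho = 0.61). Others were lower, such as Mirg with Pantr1 at r = 0.18 (rho = 0.41), so the 4 were not sharply set apart. In all 3 groups replicates 3 and 4 lay above replicates 1 and 2 for Miat, Snhg11, Mirg and Meg3, and in 2 of 3 groups for Malat1 and Pantr1. This held in 1 group for Rian and Gas5 and in 0 for Neat1 and Snhg14. The 3rd principal component of all tested genes also split by these numbers in each group. The share of tested genes with this order was not counted, so it is not shown to be particular to these RNAs. The labels do not say what a replicate number stands for. These points share their libraries, and the correlations are given as a description.

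Within groups the SD of log2 values was 0.29 for Malat1, 0.26 for Snhg11 and 0.25 for Miat, against a median of 0.14 over all tested genes. It was 0.07 for Gas5, 0.09 for Pantr1, 0.10 for Snhg14, 0.15 for Neat1 and 0.18 for Mirg. The SE of Neat1 in limma also draws on the spread of other genes at its level. Deviations of Snhg11 followed the 3rd principal component of all tested genes (r = -0.97, rho = -0.93, 10.6% of the variance), as did those of Miat (r = -0.90, rho = -0.85). Malat1 (r = -0.68, rho = -0.64), Pantr1 (r = -0.64, rho = -0.73) and Mirg (r = -0.63, rho = -0.68) followed it less closely. Deviations of Miat against reads per library gave r = 0.09 (rho = 0.31), and against the share of mitochondrial reads r = -0.56 (rho = -0.51).

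**Figure D5:**
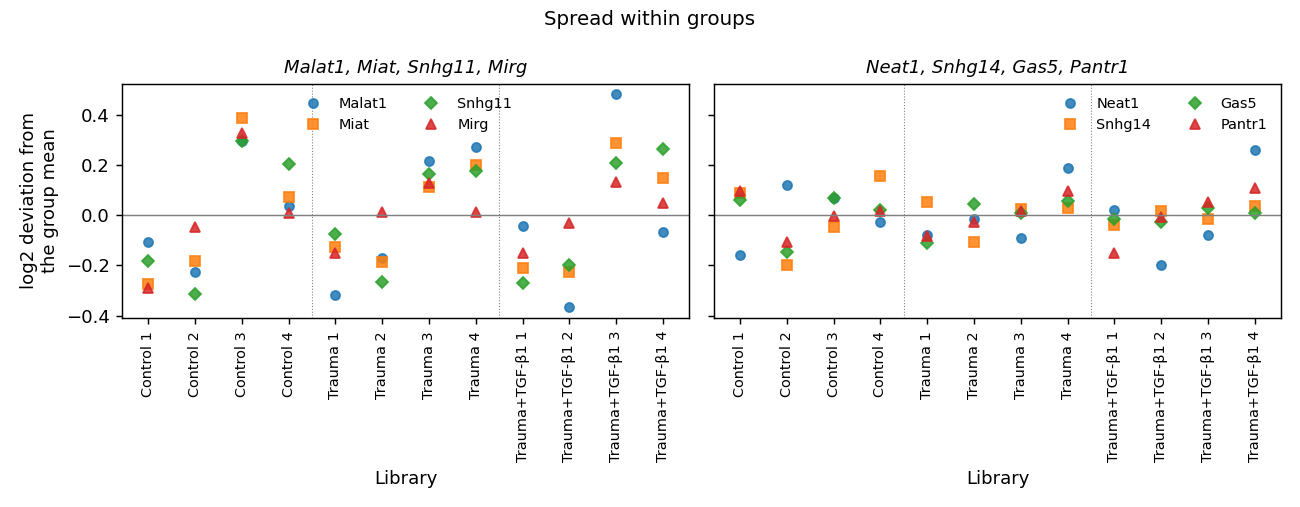
Log2 deviation of each library from its group mean for the 8 tested genes, 12 libraries on the x axis. In the left panel the 4 genes lie mostly below 0 in replicates 1 and 2 and above 0 in replicates 3 and 4, while the right panel shows no such split for Neat1 and Snhg14.

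Rian, Mirg and Meg3 lie in a row on chromosome 12. Mirg (chr12:109729764-109749460, plus strand), host of a microRNA cluster, ranged from 2.98 to 4.63 FPKM in Control, 3.14 to 3.83 in Trauma, and 3.36 to 4.11 when TGF-β1 was added. The groups overlapped, with log2 differences between -0.06 and 0.09 and limma adjusted p from 0.661 to 0.905. Of 15 microRNA genes inside Mirg, 9 had reads, 425 in all 12 libraries, with 22 to 46 per library in Control, 31 to 37 in Trauma, and 21 to 47 when TGF-β1 was added. Mir496a had 100 of these and Mir541 had 93. In a poly(A) library such reads do not measure the mature microRNAs shown above.

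Rian (chr12:109603808-109661716, plus strand), a host of snoRNAs, was below the filter. Its FPKM rests on 31981 bases of exon in the table, whereas GENCODE vM21 exons cover 18234, so its rank beside Neat1 depends on the model. Control libraries held 0.354, 0.204, 0.253 and 0.243 FPKM, Trauma libraries 0.196, 0.181, 0.180 and 0.248, and Trauma+TGF-β1 libraries 0.318, 0.341, 0.398 and 0.396. Every Trauma+TGF-β1 library was above every Trauma library, with Control between and overlapping both. The ratio of means was 1.81, with 101 to 141 reads per library in Trauma, and 155 to 206 when TGF-β1 was added (two-sided exact permutation test, p = 0.0286, a value none of the 70 assignments can go below). Of the 15016 tested genes, which leave out Rian, 10.2% had every Trauma+TGF-β1 library above every Trauma library. The share among genes below the filter was not computed.

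A voom fit to all 33142 genes with a read called Rian in this comparison, at 0.86 on the log2 scale (limma-voom, adjusted p = 0.00334), against 5.56% of those genes. A limma fit with the filter lowered to 0.1 FPKM did not call it (0.62, adjusted p = 0.108). With the GC correction added to that fit the difference was 0.44 (limma, adjusted p = 0.336), where the GC content of Rian was 35.8%, lower than in all but 1.05% of tested genes. In Trauma against Control the exact permutation p was 0.0857.

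Meg3 (chr12:109541001-109571726, plus strand), an RNA often called a growth suppressor, had 0.120 ± 0.0514 FPKM (SD, n = 4) in Control, 0.105 ± 0.0366 in Trauma, and 0.160 ± 0.0655 when TGF-β1 was added. The groups overlapped, and at 17 to 64 reads per library no difference was found (two-sided exact permutation test, p from 0.20 to 0.657). None of the 13 snoRNA and 4 microRNA genes inside Rian and none of the 2 inside Meg3 had a read. Of these, 8 snoRNA genes in Rian and the 2 in Meg3 overlap exons of the host, and how reads on more than 1 gene were counted is not given. Of the 3 listed protein-coding genes of the region 1 was tested, and it passed in 0 of the 3 comparisons by limma, by voom and at an unadjusted p of 0.05.

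Gas5 (chr1:161034422-161038539, plus strand), a snoRNA host whose spliced RNA is removed by nonsense-mediated decay, had the smallest spread within groups of the 8 tested. It ranged from 9.54 to 11.1 FPKM in Control, 9.30 to 10.4 in Trauma, and 9.73 to 10.1 when TGF-β1 was added. The log2 difference of Trauma from Control was -0.07, with a 95% interval from -0.19 to 0.05, and that of Trauma+TGF-β1 from Control -0.09, from -0.21 to 0.03 (limma, adjusted p = 0.520 and 0.280). After the GC correction the second was -0.20 and passed (limma, adjusted p = 0.0232). Its gene overlaps Zbtb37 on the other strand. Its 10 snoRNA genes had no read, but all 10 overlap its annotated exons. How reads on more than 1 gene were counted is not given in the sources used here, so this is not a measure of absence.

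Of 10 nonsense-mediated decay factors, 0 passed in Trauma against Control, by limma or by voom, and 2 at an unadjusted p of 0.05. In Trauma+TGF-β1 against Trauma 1 rose, the kinase Smg1 (0.24, limma, adjusted p = 0.0176), and 1 fell, the helicase Upf1, which dropped by 0.21 (limma, adjusted p = 0.0382). After the GC correction Upf1 was -0.055 and was not called (limma, adjusted p = 0.497). Of 14 other snoRNA host genes tested, 1 rose in Trauma, Zfas1 (0.42, limma, adjusted p = 0.0335), and 1 fell with TGF-β1, Snhg8, which dropped by 0.48 (limma, adjusted p = 0.0322). The medians of these hosts were 0.05, -0.15 and -0.17 in the 3 comparisons.

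Pantr1 (chr1:42590782-42694842, minus strand), which lies head to head with the neuronal transcription factor gene Pou3f3, held 15.83, 13.75, 14.77 and 14.99 FPKM in Control. Trauma libraries held 12.41, 12.88, 13.28 and 14.05, and Trauma+TGF-β1 libraries 11.88, 13.15, 13.71 and 14.25. Both injured groups had lower means than Control, with overlap. The log2 difference was -0.17 ± 0.063 (SE) for Trauma (limma, adjusted p = 0.147) and -0.16 ± 0.063 for Trauma+TGF-β1 against Control (limma, adjusted p = 0.0987). After the GC correction the latter was -0.24 and passed (limma, adjusted p = 0.0136). Trauma+TGF-β1 differed from Trauma by 0.01, with a 95% interval from -0.13 to 0.15.

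Pou3f3 itself had 31.8, 36.4 and 27.4 FPKM in Control, Trauma and Trauma+TGF-β1, and fell by 0.41 on the log2 scale in the last against Trauma (limma, adjusted p = 0.0136). Gm20646, a long noncoding RNA beside Pantr1, fell by 0.88 there (limma, adjusted p = 0.0377). Over all 32 tested genes within 100 kb of a member, 1 rose and 1 fell in Trauma against Control, 1 rose and 3 fell in Trauma+TGF-β1 against Trauma, and 1 rose and 1 fell in Trauma+TGF-β1 against Control. Frmd8, next to Neat1, was the one that rose in Trauma (0.49, limma, adjusted p = 0.0256), and Ltbp3, which encodes a binding protein of latent TGF-β, was 0.87 above Control in Trauma+TGF-β1 (limma, adjusted p = 0.00162). Frmd8 and Gm20646 were no longer called after the GC correction (limma, adjusted p = 0.0506 and 0.0583).

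Of 21 other tested long noncoding RNAs listed for the brain or nucleus, 0 passed in Trauma against Control by limma, 4 at an unadjusted p of 0.05 and 2 in voom. With TGF-β1 against Trauma 1 fell, Mir9-3hg, host of a neural microRNA, by 0.28 (limma, adjusted p = 0.0246), which the GC correction left at -0.24 and not called (limma, adjusted p = 0.0627). Against Control 2 fell in Trauma+TGF-β1, 2900097C17Rik by 0.25 and 6330403K07Rik by 0.26 (limma, adjusted p = 0.00489 and 0.00884). The list medians were -0.07, 0.00 and -0.01.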

How the data were processed

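The 12 libraries, 4 each of Control, Trauma and Trauma+TGF-β1, were made from poly(A) RNA. The authors aligned reads with HISAT2 2.0.5 to mm10 (GRCm38), per the submitters' processing notes, used featureCounts for reads on each gene, and deposited FPKM per gene, together with gene length in bases (other). FPKM multiplied by gene length and by 1 constant per library gave whole reads for 100% of values (within 0.01 read), which were used in limma-voom. The deposited FPKM already carried equal median-of-ratios factors in all 12 libraries. The table holds 55901 genes, 480 of them unnamed loci.

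Log2 values of FPKM plus 0.1 were compared for 15016 genes whose mean reached 0.5 FPKM, in one fit of the 12 libraries (limma 3.58.1 in R 4.3.3, eBayes with a trend, no block), with Benjamini-Hochberg adjustment over all tested genes and a threshold of 0.05. Fold changes are on this log2(FPKM + 0.1) scale and understate changes of low genes. The exact permutation tests were two-sided. Positions are those of the table (GRCm38); 9 of the 10 members had the coordinates of GENCODE vM21, from whose transcripts GC content was taken. Promoters and microRNAs are RefSeq entries on GRCm38.p6, present for 8 of 10 members. On simulated data with 200 genes changed by 0.5 on the log2 scale in Trauma against Control, 54.0% of them and 6 unchanged genes were called. The simulated counts carried no effect of GC content, gene length or replicate number, so the 6 false calls do not measure such effects.

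Members, gene lists and tests were chosen with earlier results of these data known. Besides members, the text names listed genes past the threshold (at most the 4 with the largest change per list and comparison), tested genes within 100 kb of a member, and the 2 genes most like each called member (a mean of 1 FPKM or more, no Gm, Rik, Mir or Snor names). The values of 1 listed gene are not reported here. The strand setting of the counting is not given in the sources used here. Alternatives were the pseudocount, filter, normalization, block, gene length, voom, the groups fitted, an unadjusted p and each library left out. GC content, a filter of 0.1 FPKM, scaling by reads on genes and voom on all genes were added after the data were seen. Python 3.11.15, pandas 2.3.3, scipy 1.17.1 and matplotlib 3.10.9 were used. Methods of the study speak of 6 samples.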

Additional observations from a re-analysis of the deposited data

How the results depend on the processing

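The rise of Snhg14 in Trauma+TGF-β1 against Trauma was kept under every alternative except the corrections for gene length or GC content, with log2 fold changes from 0.14 to 0.36 and adjusted p from 0.000659 (limma-voom) to 0.218 (limma). Leaving out single libraries gave 0.31 to 0.37 (adjusted p from 0.00715 to 0.0439). The number of members called in Trauma against Control was 0, and became 1 with the replicate block, alone or with the gene length or GC correction (Snhg11 each time), 2 with voom and 2 at an unadjusted p. Leaving out single libraries gave 0 to 1 (Snhg14, without Control replicate 2). In Trauma+TGF-β1 against Trauma it was 1, and became 2 with the replicate block, voom or an unadjusted p, 3 with voom on all genes, and 0 with the gene length or GC correction, each with or without the block, and with the GC correction and the lower filter of 0.1 FPKM. In Trauma+TGF-β1 against Control it was 0, and became 1 with gene length and the block (Miat) or an unadjusted p, and 2 with the GC correction, alone, with the block or with the lower filter. The cause of these moves was not tested. For most settings the share of all genes is given above. For the others, higher and lower calls follow in the order of the 3 comparisons. Of 15016 genes they were 443 and 491, 274 and 602, and 737 and 1667 with gene length and the block. With GC and the block they were 491 and 849, 265 and 462, and 676 and 1356. With GC and the lower filter they were 383 and 657, 147 and 466, and 565 and 1412 of 21062. Without Control replicate 2 the first comparison had 452 and 301.

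With the replicate block Snhg11 was -0.34 in Trauma against Control (limma, adjusted p = 0.00946) and 0.24 in Trauma+TGF-β1 against Trauma (limma, adjusted p = 0.0323). The labels do not say that a number marks a shared culture, and over all genes the numbers did not meet the condition set for pairing, a correlation above 0.1 in every pair. Deviations correlated between -0.0088 and 0.076 over 12 pairs of the same number and between -0.091 and 0.073 over 36 others, and 4 of 12 libraries correlated best with their own number. Replicates 3 and 4 nevertheless lay below replicates 1 and 2 on the 3rd principal component in all 3 groups, and above them for Meg3, Mirg, Miat and Snhg11, so the numbers are not without a pattern. The share of all tested genes with such an order was not counted.

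Small differences changed sign. Gas5 in Trauma+TGF-β1 against Trauma was 0.015 with quantile normalization and 0.014 with the gene length correction. Pantr1 there was -0.063 with the GC correction and -0.061 with the lower filter as well. In Trauma+TGF-β1 against Control, Mirg was -0.0075 with quantile normalization and -0.015 with the gene length correction, Snhg11 was 0.0035 with quantile normalization, and Snhg14 was -0.044 with the GC correction and the lower filter. With single libraries left out, Mirg ranged from -0.16 to 0.045 and Miat from -0.15 to 0.071 in Trauma against Control, Gas5 from -0.055 to 0.00049 and Pantr1 from -0.027 to 0.059 in Trauma+TGF-β1 against Trauma, and Mirg from -0.071 to 0.14 in Trauma+TGF-β1 against Control. Over all tested genes, Trauma+TGF-β1 against Trauma called 1819, and 821 after the GC correction. The split of higher and lower calls in Trauma against Control was 496 and 405, and 478 and 755 after the GC correction or 655 and 223 scaled by reads on genes. In Trauma+TGF-β1 against Trauma it was 661 and 1158, and 1125 and 927 with quantile normalization, and against Control 922 and 1565, then 1134 and 918 with quantile normalization or 1340 and 1095 scaled by reads on genes. Depth limits Neat1, Rian and Meg3, the 3 members under 1 FPKM.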

Other observations

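Among tested genes with a mean of at least 1 FPKM, those whose deviations from the group means were most like Snhg14 over the 12 libraries were Pcdh11x, a protocadherin of neurons (r = 0.94), and Etnk1, an ethanolamine kinase (r = 0.94), out of 11085 genes. Both are long in exon, 13946 and 14151 bases, and these values are a description over libraries that share their depth and composition. Deviations of Snhg14 against reads per library gave r = -0.72 (rho = -0.55). Each Trauma library also had more reads than each Trauma+TGF-β1 library, and the part of depth in the rise of Snhg14 was not tested.

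Cell type markers moved beside the long noncoding RNAs. Of 10 astrocyte markers, 8 rose in Trauma against Control (limma), among them Gfap by 0.86 and Aqp4 by 0.62. Of 5 tested microglia markers, 2 rose there, C1qa by 0.55 and C1qb by 0.69. Of 7 tested oligodendrocyte lineage markers 3 rose, and of 3 tested endothelial and fibroblast markers 1 rose. Of 12 neuron markers, 3 fell and 1 rose, with Syt1 lower by 0.27 on the log2 scale. With TGF-β1 against Trauma, 1 astrocyte marker rose and 3 fell, 1 microglia marker fell, 1 oligodendrocyte lineage marker fell, 1 endothelial or fibroblast marker rose, and 1 neuron marker rose and 2 fell. After the GC correction none of the 12 neuron markers passed in that comparison, with Tubb3 at -0.036 in place of -0.19 and Slc17a7 at -0.037 in place of -0.17 (limma, adjusted p = 0.685 and 0.699). Aqp4 and C1qc, the astrocyte marker that rose and the microglia marker that fell there, were not called either (limma, adjusted p = 0.0768 and 0.268). The part of these shifts in the values of the long noncoding RNAs was not tested.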
